A study of Mus musculus with 8 samples.

Results

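The transcripts of 10 negative regulators of ERK signaling were examined in bulk RNA-seq of MC38 tumors that had or had not been exposed to violet light. The genes were the dual-specificity phosphatases Dusp1, Dusp2, Dusp4, Dusp5 and Dusp6, the Sprouty genes Spry1, Spry2 and Spry4 and the Spred genes Spred1 and Spred2, chosen by symbol as known feedback inhibitors of the pathway. Earlier results of these data were known at that choice, so counts of these genes beside the share of all genes are a description. All 10 were among the 24421 genes of the count table and all 10 were among the 14468 genes left for testing by the expression filter of edgeR. The MC38 line derives from a colon adenocarcinoma of a C57BL/6 mouse. Kaede, a fluorescent protein carried by every mouse of both groups, turns from green to red under violet light. All 8 tumors grew from 250000 MC38 cells injected into female B6 Kaede mice (C57BL/6 Kaede in the paper) 9 weeks of age. In the photoconverted group, the tumors of 4 mice received 405-nm light for 3 min on day 10, and in the control group the tumors of 4 mice received no light. All tumors went into RNAlater 5 h after the time of photoconversion. The comparison asks whether the labeling light itself altered transcription in the tumor. Host and tumor cells were sequenced together, so more cells of a type and more RNA per cell cannot be told apart.

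ERK is the last kinase of a cascade that runs from receptor tyrosine kinases through RAS to MEK. Active ERK induces transcription of its own inhibitors, and transcripts of this kind therefore serve as readouts of pathway activity in many tumors. The dual-specificity phosphatases remove phosphate from MAP kinases, Sprouty proteins block the signal downstream of the receptor, and Spred proteins bring the RAS GTPase-activating protein neurofibromin to the membrane.

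Total counts ranged from 12576615 to 35844417 per tumor. Rn45s, the 45S precursor of ribosomal RNA, took 2.70% to 9.65% of the counts in 5 tumors and 21.9% to 35.7% in photoconverted tumor 4, control tumor 2 and control tumor 4. These 3 libraries are called the high-share libraries, and each of the 10 genes is described with and without them. Epithelial markers (Krt8, Krt18, Krt19, Epcam and Cdh1) summed to 2.14 to 5.37 CPM (counts scaled to a common library size with TMM normalization) over the 8 tumors, so the defining markers of epithelium were near 0 in every tumor. Neutrophil markers (5 of the 6 listed were in the table) summed to 57.9, 68.5, 104 and 18.3 CPM in photoconverted tumors 1 to 4 and to 15.8 to 27.6 CPM in control tumors, and skeletal muscle markers summed to 392, 634, 1310 and 157 CPM in photoconverted tumors and to 159 to 380 CPM in control tumors. Photoconverted tumors 1 to 3 thus carried more of both than every control tumor, and photoconverted tumor 4 did not. The sums overlapped between the groups for macrophage (404 to 922 in photoconverted and 310 to 805 CPM in control tumors), endothelial (91.5 to 161 and 80.9 to 135), fibroblast (1661 to 2204 and 1576 to 7336), keratinocyte (1.03 to 15.7 and 1.06 to 2.45) and adipocyte markers (9.70 to 35.6 and 9.83 to 20.6). The part of cell content in the results was not tested. A fit with the muscle markers as a covariate is given as a description. As the muscle markers differed with the group, that fit cannot tell muscle content from an effect of light.

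The sequences upstream of the 3 genes with the largest log2 fold change between the groups are shown because stimulus-responsive promoters of this family are known to hold short control elements. The table of RefSeq promoters used here (build GRCm38.p6) matched 8 of the 10 genes, all but Dusp4 and Spry4. Each line gives the 250 bases before the annotated start, 5′ to 3′ on the strand of the gene. Capitals mark matches, on either strand, to the cyclic AMP response element (CRE) TGACGTCA, its shorter form TGACG, the E-box CACGTG or the CArG box, the site of serum response factor. The Dusp1 window lies at chr17:26508473-26508722 on the minus strand, that of Dusp2 at chr2:127335909-127336158 on the plus strand and that of Dusp5 at chr19:53528895-53529144 on the plus strand.
Dusp1: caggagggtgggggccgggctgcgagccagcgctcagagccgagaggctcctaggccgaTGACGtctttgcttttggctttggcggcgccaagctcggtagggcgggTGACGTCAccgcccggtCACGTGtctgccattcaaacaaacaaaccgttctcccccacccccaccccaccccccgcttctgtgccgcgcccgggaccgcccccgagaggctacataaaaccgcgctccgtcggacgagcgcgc
Dusp2: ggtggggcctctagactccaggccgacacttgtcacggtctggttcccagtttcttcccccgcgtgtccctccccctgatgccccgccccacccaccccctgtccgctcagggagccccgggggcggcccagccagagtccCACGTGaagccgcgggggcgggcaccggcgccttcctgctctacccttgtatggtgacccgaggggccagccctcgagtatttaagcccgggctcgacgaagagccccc
Dusp5: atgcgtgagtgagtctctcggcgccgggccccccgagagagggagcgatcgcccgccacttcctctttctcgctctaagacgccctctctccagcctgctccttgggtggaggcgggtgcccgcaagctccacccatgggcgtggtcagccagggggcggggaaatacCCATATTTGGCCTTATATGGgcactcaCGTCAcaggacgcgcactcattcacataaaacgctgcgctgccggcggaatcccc

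In Dusp1 the CRE lies 143 to 136 bases before the start, a separate TGACG lies at 191 to 187 bases and the E-box at 126 to 121 bases. The CRE contains TGACG on both strands, and those matches overlap it. Of 32851 RefSeq promoter windows of the same length, 1.55% hold the CRE, 17.8% hold TGACG and 6.02% hold the E-box. Dusp2 holds the E-box alone, 109 to 104 bases before the start. Dusp5 holds 2 adjoining CArG boxes, at 82 to 73 and 72 to 63 bases, and a TGACG on the opposite strand at 55 to 51 bases. A CArG box is found in 1.47% of the windows. Among the other 5 windows, Spred2 holds a TGACG at 51 to 47 bases and Dusp6, Spry1, Spry2 and Spred1 hold none of these motifs. The AP-1 site (TGACTCA or TGAGTCA, in 4.46% of windows) and the heat shock element (GAANNTTC, in 6.69%) were in none of the 8 windows. CCGGAA, a longer form of the ETS site (in 12.0%), was in none either. The shorter GGAA core of ETS sites was not searched for, so a lack of ETS sites is not shown. These matches describe letters in a window and show no binding.

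With all 8 tumors, none of the 10 genes passed the threshold of 0.05 for the adjusted p, and neither did any other gene (0.00% of 14468 tested by edgeR's quasi-likelihood method, Benjamini-Hochberg adjusted). Unadjusted p-values under the same threshold were found for 3 of the 10, Dusp1, Dusp2 and Dusp6, all higher in photoconverted tumors, against 1.65% of all genes tested that were higher at that level. The log2 fold change, photoconverted against control, was above 0 for 8 of the 10 genes, beside 6768 of all 14468 genes tested. Its median was 0.26 for the 10 genes, beside a median of -0.01 over all genes tested. By subfamily the median was 0.50 for the phosphatases, 0.22 for the Sprouty genes and -0.01 for the Spred genes. The difference was carried by photoconverted tumors 1 to 3, which stood above all 4 control tumors for Dusp1, Dusp2, Dusp6 and Spry2, that is 4 of 10 genes, against 3.83% of all genes. Photoconverted tumor 3 was the highest of its group for 7 of the 10 genes, against 27.2% of all genes. The groups overlapped for every member, whereas 1.33% of all genes tested had groups that did not overlap and 0.684% had all photoconverted tumors higher.

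**Figure D1:**
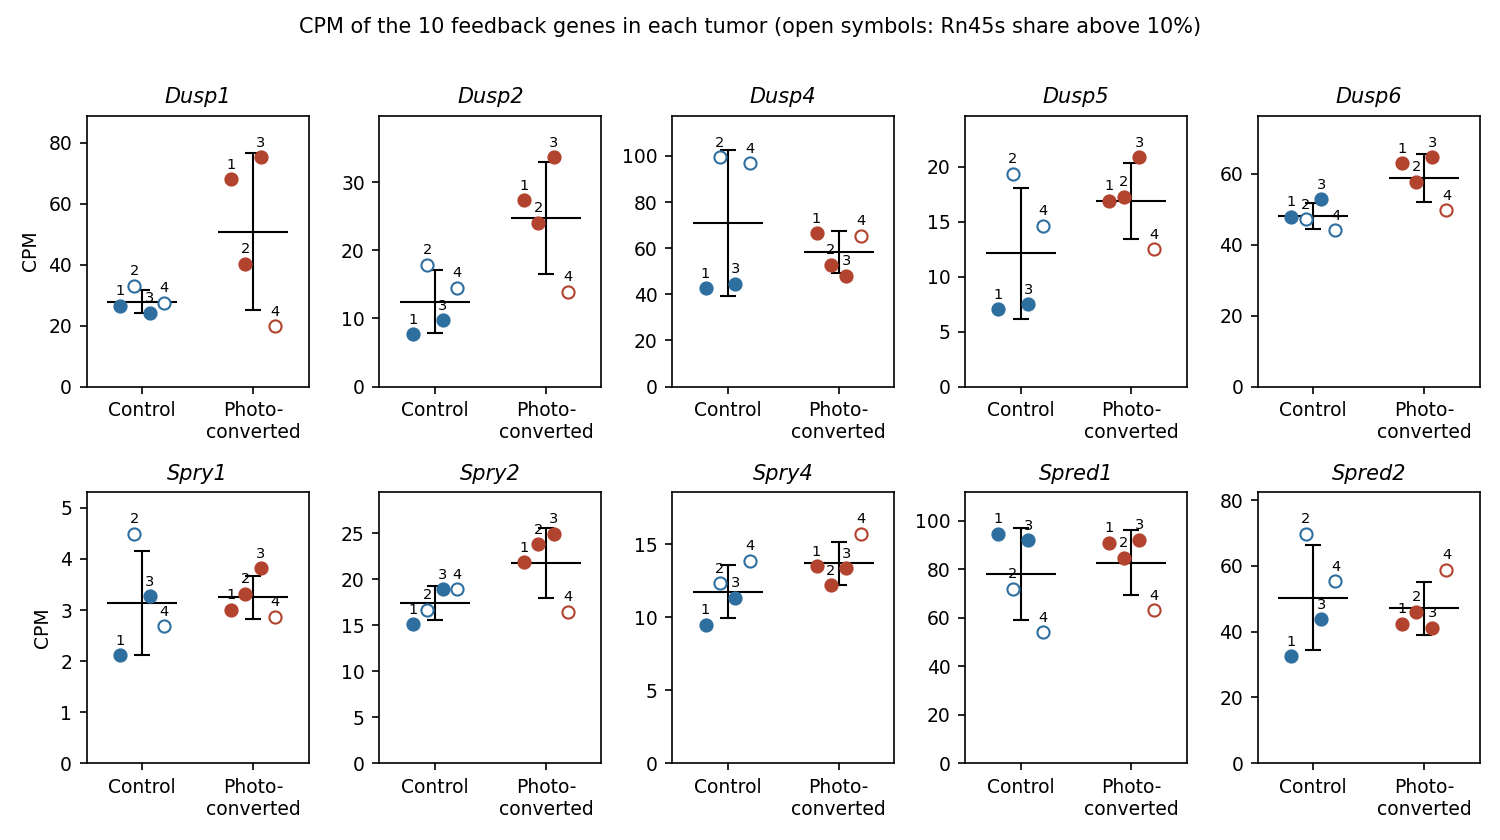
CPM (vertical axis, linear from 0, a separate scale for each gene) of the 10 feedback genes in 4 control (blue) and 4 photoconverted (red) tumors. Numbers give the tumor, horizontal lines the group mean and bars 1 SD, and open symbols the libraries with an Rn45s share above 10%. For Dusp1, Dusp2, Dusp6 and Spry2 photoconverted tumors 1 to 3 lie above every control tumor, whereas photoconverted tumor 4 lies among the controls or below them.

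Dusp1 encodes a nuclear phosphatase of ERK, p38 and JNK and is an immediate-early gene of stress and growth factor signaling (RefSeq position chr17:26505591-26508472, build GRCm38.p6). Its level was 68.0, 40.2, 75.3 and 19.7 CPM in photoconverted tumors 1 to 4 and 26.5, 33.1, 24.3 and 27.5 CPM in control tumors 1 to 4. Photoconverted tumors 1 and 3 were more than 2 times every control tumor, and photoconverted tumor 4 was the lowest of all 8. The means were 50.8 ± 25.6 and 27.8 ± 3.74 CPM (SD, n = 4 each). On the log2 scale the fold change was 0.87 with a standard error (SE) of 0.36 and a 95% interval of 0.07 to 1.68 (edgeR p = 0.0359, adjusted p = 0.999, exact permutation p = 0.229). The permutation test was two-sided over the 70 arrangements of the tumors, and its smallest possible p is 0.0286. Without photoconverted tumor 4 the log2 fold change was 1.14 (edgeR adjusted p = 0.180), in a fit that called 11 of 14770 genes (0.0745%) and none of the 10. With the mean log2 CPM of the muscle markers as a covariate it was 0.41 (edgeR adjusted p = 1.00), less than 0.5 times the log2 value without the covariate. The same covariate gave values closer to 0 for Dusp2 (0.73), Dusp5 (0.39), Dusp4 (-0.05), Dusp6 (0.19) and Spry2 (0.18) and a value farther from 0 for Spry4 (0.32), and it turned the sign of Spry1, Spred1 and Spred2.

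Dusp2, a nuclear phosphatase of ERK and p38 that is induced in activated immune cells, had the largest log2 fold change of the 10 (chr2:127336159-127338377). It stood at 27.3, 24.1, 33.7 and 13.9 CPM in photoconverted tumors and at 7.65, 17.9, 9.74 and 14.5 CPM in control tumors. Photoconverted tumor 4 fell within the control range, and the control tumors themselves were split, with the high-share libraries 2 and 4 above 1 and 3. That split was seen for 6 of the 10 genes, against 32.6% of all genes tested. The reverse split was seen for 2 of the 10, against 32.9% of all genes tested. The means of Dusp2 were 24.8 ± 8.26 and 12.4 ± 4.62 CPM (SD, n = 4 each), a ratio of 1.99. Its log2 fold change was 1.01 (SE 0.33, 95% interval 0.28 to 1.74, edgeR p = 0.0122, adjusted p = 0.999) and the exact permutation p was 0.0857. DESeq2's Wald test gave the same 1.01 with an adjusted p of 0.518. Immune cells could carry this gene. T cell markers summed to 11.0 to 26.6 CPM in photoconverted tumors and 5.74 to 25.2 CPM in control tumors, and macrophage sums overlapped too. Neutrophil markers summed to 57.9, 68.5, 104 and 18.3 CPM in photoconverted tumors 1 to 4 and to 15.8 to 27.6 CPM in control tumors. The part of these cells in the result was not tested.

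Dusp5 encodes a nuclear phosphatase specific to ERK (chr19:53529145-53541809). Its CPM values were 16.9, 17.3, 20.9 and 12.5 in photoconverted tumors and 7.02, 19.4, 7.50 and 14.6 in control tumors. The groups overlapped through the high-share libraries, since control tumors 2 and 4 (19.4 and 14.6) were well above control tumors 1 and 3 (7.02 and 7.50). For all 8 tumors the log2 fold change was 0.50 (SE 0.33, 95% interval -0.25 to 1.25, edgeR p = 0.169, adjusted p = 0.999) and the exact permutation p was 0.229. An antisense transcript on the other strand overlaps an exon of Dusp5 in GENCODE M21. The strand setting of the counting is not given in the sources used here, so reads of the 2 could not be told apart.

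Dusp4, a nuclear phosphatase of ERK and JNK (chr8:34807610-34819894), had the lowest log2 fold change of the 10. Photoconverted tumors had 66.6, 52.9, 48.0 and 65.5 CPM and control tumors 42.5, 99.5, 44.5 and 96.9 CPM. Control tumors 2 and 4, both high-share libraries, were the highest of all 8, and control tumors 1 and 3 were the lowest. Over all 8 tumors the log2 fold change was -0.28 (SE 0.30, 95% interval -0.95 to 0.39, edgeR p = 0.374, adjusted p = 0.999) and the exact permutation p was 0.629. Its direction depended on the high-share libraries: it was 0.36 (edgeR adjusted p = 0.449) in the 5 tumors without them.

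Dusp6, the cytoplasmic phosphatase specific to ERK and a widely used transcript of pathway output, had the smallest SE of the 10 (chr10:99263231-99267489). It had 63.0, 57.8, 64.7 and 49.7 CPM in photoconverted tumors and 47.9, 47.1, 52.9 and 44.1 CPM in control tumors. Only photoconverted tumor 4 fell among the controls, below control tumor 3 and above the other three. The means were 58.8 ± 6.72 and 48.0 ± 3.64 CPM (SD, n = 4 each). Its fold change was 0.29 on the log2 scale (SE 0.12, 95% interval 0.03 to 0.56, edgeR p = 0.0349, adjusted p = 0.999) and the exact permutation p was 0.0571. Dusp6 was the only member that was higher in the photoconverted tumor of all 4 same-numbered pairs, against 7.20% of all genes, with differences of 0.39, 0.29, 0.29 and 0.17 in log2 CPM. A two-sided exact test over the 16 sign flips of the pairs cannot go below p = 0.125 and gave that value.

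Among the Sprouty genes, Spry2, whose product inhibits receptor tyrosine kinase signaling upstream of ERK (chr14:105891947-105896819), had 21.8, 23.8, 25.0 and 16.5 CPM in photoconverted tumors and 15.1, 16.7, 18.9 and 18.9 CPM in control tumors. Photoconverted tumors 1 to 3 were above all controls and photoconverted tumor 4 was below 3 of them. Spry2 had a log2 fold change of 0.32 (SE 0.16, 95% interval -0.04 to 0.69, edgeR p = 0.0750, adjusted p = 0.999), with an exact permutation p of 0.114. Spry4, a related inhibitor, had 13.5, 12.2, 13.4 and 15.7 CPM against 9.48, 12.3, 11.3 and 13.9 CPM. It was the only Sprouty gene for which photoconverted tumor 4 was the highest of all 8. Its log2 fold change was 0.22 (SE 0.16, edgeR p = 0.200, adjusted p = 0.999; exact permutation p = 0.200). Spry1 (chr3:37639947-37644599), with 42 to 120 reads per tumor, was the least abundant member at 2.87 to 3.82 CPM in photoconverted tumors and 2.11 to 4.50 CPM in control tumors. Its log2 fold change was 0.07 (SE 0.26, 95% interval -0.51 to 0.66, edgeR p = 0.782, adjusted p = 0.999, exact permutation p = 0.743). An annotated transcript on the opposite strand also overlaps an exon of Spry1.

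Differences were also small for the Spred genes. Spred1 (chr2:117121071-117182279) had 90.9, 84.8, 92.2 and 63.1 CPM in photoconverted tumors and 94.7, 72.0, 91.9 and 54.1 CPM in control tumors. Spred2 (chr11:19924442-20024026) had 42.4, 46.1, 41.2 and 58.8 CPM and 32.5, 69.8, 43.8 and 55.3 CPM, respectively. Their tumors sorted by Rn45s share and not by group. A split of the control tumors by share was common: 32.6% of all genes tested had control tumors 2 and 4 both above 1 and 3, and 32.9% had both below. Spred1 was lower in the 3 high-share libraries (54.1 to 72.0 CPM) than in the other 5 (84.8 to 94.7 CPM), and Spred2 was higher there (55.3 to 69.8 against 32.5 to 46.1 CPM). Spred1 had a log2 fold change of 0.08 (SE 0.20, 95% interval -0.36 to 0.53, edgeR adjusted p = 0.999, exact permutation p = 0.686) and Spred2 of -0.09 (SE 0.23, 95% interval -0.61 to 0.42, edgeR adjusted p = 0.999, exact permutation p = 0.914). The direction of both turned when the high-share libraries were left out, to -0.06 and 0.18.

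**Figure D2:**
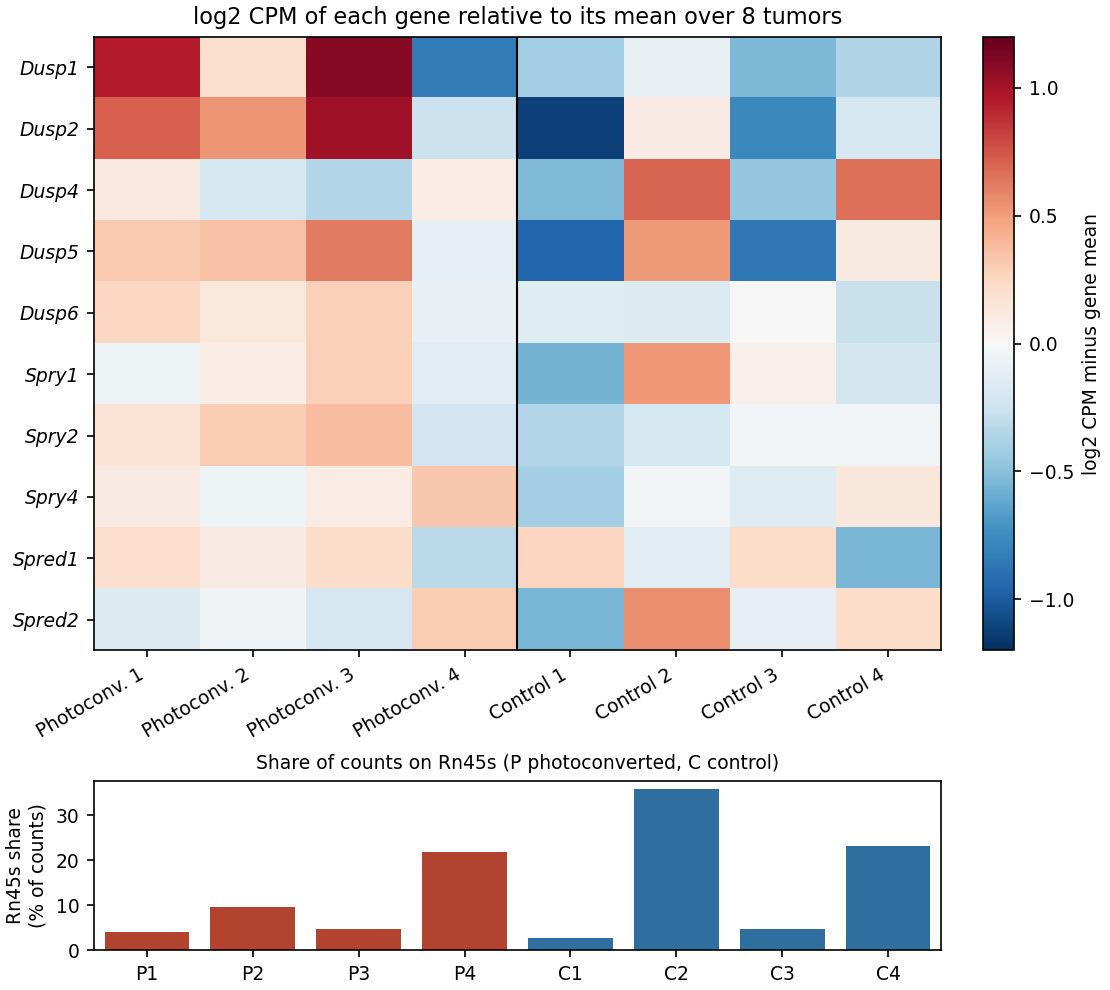
Top, log2 CPM of each gene in each tumor minus the mean of that gene over 8 tumors (color scale in log2 units). Bottom, share of counts on Rn45s in percent for photoconverted (P1 to P4) and control (C1 to C4) tumors. Photoconverted tumors 1 and 3 are high for Dusp1 and Dusp2, and Dusp4 and Spred2 are high in control tumors 2 and 4, which have Rn45s shares of 35.7% and 23.2%.

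Because the high-share libraries fell on 1 photoconverted and 2 control tumors, the groups were also compared among libraries of like share. This comparison has the limit that the high-share side holds a single photoconverted tumor. Among the 5 low-share tumors (3 photoconverted, 2 control), the difference in mean log2 CPM was 1.69 for Dusp2, 1.32 for Dusp5, 1.22 for Dusp1, 0.47 for Spry2, 0.35 for Spry1, 0.34 for Dusp4, 0.32 for Spry4, 0.29 for Dusp6, 0.19 for Spred2 and -0.06 for Spred1. All 3 photoconverted tumors were above both controls for 7 of the 10 genes, against 14.0% of all genes tested. An edgeR fit of these 5 tumors, with 3 residual degrees of freedom, called 42 of 15252 genes (0.275%), and among them were Dusp2 (log2 fold change 1.71, edgeR adjusted p = 0.0195) and Dusp5 (1.34, edgeR adjusted p = 0.0195). Dusp1 did not pass there (1.27, edgeR adjusted p = 0.135). Among the 3 high-share tumors, photoconverted tumor 4 was lower than the mean of control tumors 2 and 4 by 0.61 for Dusp1, 0.21 for Dusp2, 0.43 for Dusp5, 0.58 for Dusp4, 0.27 for Spry1, 0.11 for Spry2 and 0.08 for Spred2 in log2 CPM. It was above that mean by 0.13 for Dusp6, 0.27 for Spry4 and 0.02 for Spred1. The pooled difference of Dusp1, Dusp2 and Dusp5 therefore did not hold among the high-share libraries. Photoconverted tumor 4 was the lowest of its group for 7 of the 10 genes, against 40.6% of all genes tested. It was also the photoconverted tumor with the fewest neutrophil and muscle transcripts, and the part of cell content and library quality in this was not tested.

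**Figure D3:**
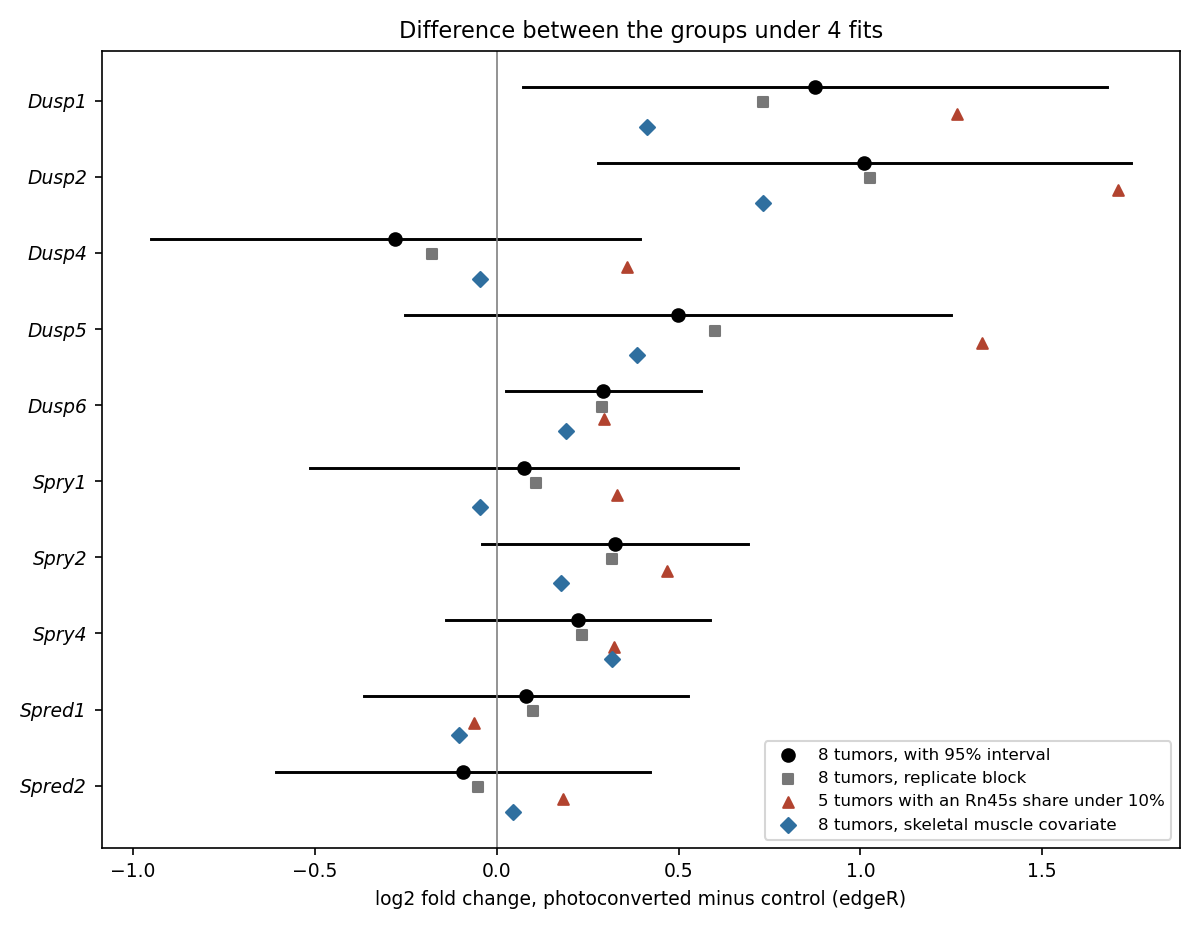
log2 fold change, photoconverted minus control, of the 10 genes under 4 edgeR fits: all 8 tumors with the 95% interval (black), with the replicate number as a block (gray), the 5 tumors with an Rn45s share under 10% (red triangles) and with the skeletal muscle markers as a covariate (blue diamonds). Dusp2 ranges from 0.73 to 1.71 over these fits and Dusp1 from 0.41 to 1.27, while Dusp4, Spry1, Spred1 and Spred2 lie on both sides of 0.

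Levels were compared between genes as CPM per kb of transcript. In control tumors the order of the means was Dusp4 (25.9 ± 11.5), Spred2 (17.7 ± 5.59), Dusp6 (17.2 ± 1.30), Dusp1 (14.0 ± 1.88), Spred1 (13.0 ± 3.15), Spry2 (8.34 ± 0.890), Dusp2 (7.70 ± 2.86), Dusp5 (4.91 ± 2.41), Spry4 (2.47 ± 0.385) and Spry1 (1.27 ± 0.411 CPM per kb, SD, n = 4). The ranges of neighbors in this order overlapped throughout, except for Spry4 and Spry1. In photoconverted tumors the means of Dusp1 (25.5 CPM per kb), Dusp4 (21.3) and Dusp6 (21.0) came first. Dusp1 was at 34.2, 20.2, 37.8 and 9.92 CPM per kb in tumors 1 to 4, so it was above Dusp6 (22.5, 20.7, 23.1 and 17.8) in tumors 1 and 3 and below it in tumors 2 and 4. Spry4 (2.88) and Spry1 (1.31) again had the lowest means. The control order moved with the Rn45s share. In the low-share control tumors 1 and 3, Dusp6 came first (17.1 and 18.9 CPM per kb), followed by Dusp4 (15.5 and 16.3), Spred1 (15.7 and 15.3), Spred2 (11.4 and 15.3) and Dusp1 (13.3 and 12.2). The other five genes kept their order there, from Spry2 to Spry1. Each level rests on 1 transcript length per gene, and isoform use was not measured.

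For each member the non-member genes with the most similar profile of log2 CPM over the 8 tumors were identified. These genes were picked as the highest of all tested genes, and the tumors share library type, so the coefficients are a description. Dusp2 was closest to Nfkbia, the inhibitor of NF-kappaB (Pearson's r = 0.978, Spearman's rho = 1.00, r = 0.971 without the 2 tumors farthest from the median), and to Slc5a3, a myo-inositol transporter (r = 0.977). Dusp6 was closest to Ets2, an ETS transcription factor (r = 0.991, rho = 1.00, r = 0.975 without 2 tumors), and to Il1rn, the interleukin-1 receptor antagonist (r = 0.982). Dusp1 was closest to the transcription factor Sox9 (r = 0.962, rho = 0.929, r = 0.943 without 2 tumors). Spred2 was closest to the semaphorin receptor Plxnb1 (r = 0.992) and Vps18 (r = 0.990), Spred1 to the kinase gene Stk17b (r = 0.988) and Aspa (r = 0.988), Dusp4 to Mir7003 (r = 0.981) and Chkb (r = 0.975), and Dusp5 to Mir207 (r = 0.964) and Tnip2 (r = 0.958). Spry1 was closest to Notch1 (r = 0.977) and Ttc9 (r = 0.976), Spry2 to Gm5483 (r = 0.969) and Hoxb2 (r = 0.961), and Spry4 to Cdr2 (r = 0.963) and Eomes (r = 0.946). For Tnip2 and Eomes the coefficient was 0.803 and 0.787 without the 2 farthest tumors.

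The remaining phosphatases and Sprouty family genes were examined for comparison. None of the other 5 MAP kinase phosphatases passed the test with 8 tumors, and their median log2 fold change was 0.05 (-0.00027 without photoconverted tumor 3 and 0.22 without photoconverted tumor 4). Dusp16, a phosphatase of JNK and p38, had 27.6, 24.8, 30.5 and 17.4 CPM in photoconverted tumors and 17.3, 16.5, 20.5 and 17.0 CPM in control tumors. Photoconverted tumor 4 again lay among the controls (log2 fold change 0.49, SE 0.18, edgeR p = 0.0234, adjusted p = 0.999, exact permutation p = 0.0571). Dusp8 (0.34, SE 0.27; 0.94 with an edgeR adjusted p of 0.0672 in the 5 low-share tumors) and Dusp9 (-0.21, SE 0.32) did not pass either, and Dusp9 had the opposite sign without the high-share libraries (0.15). Leaving out 1 tumor gave 0.17 (without control tumor 3) to 0.58 (without control tumor 4) for Dusp8 and -0.48 (without photoconverted tumor 4) to -0.03 (without control tumor 2) for Dusp9. Spred3 stood at 0.94 times its control mean (log2 fold change -0.07, SE 0.27), and Spry3 had 0 counts in all 8 tumors.

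Among the genes of the kinase cascade itself differences were small. Of its 18 genes, 0 passed the test, 10 were above and 8 below a log2 fold change of 0, and values ran from -0.24 to 0.22 with a median of 0.01. Leaving out 1 tumor gave a median of -0.02 to -0.00089. The adaptor gene Grb2 (0.22, SE 0.11) and the MEK gene Map2k1 (-0.23, SE 0.19) were among the genes with the smallest edgeR p-values of the list, and the adjusted p was 0.999 for each. Map2k1 was -0.38 without photoconverted tumor 4, -0.14 without control tumor 2 and -0.07 with the muscle markers as a covariate. Among 10 other inhibitors of RAS and ERK signaling, the median was -0.01 (-0.05 to 0.04 when 1 tumor was left out). Errfi1, an inducible inhibitor of the EGF receptor, was the exception in size, with 109, 84.9, 130 and 50.2 CPM in photoconverted tumors and 38.1, 37.9, 30.5 and 49.9 CPM in control tumors. The groups did not overlap, although photoconverted tumor 4 (50.2) lay next to control tumor 4 (49.9) (log2 fold change 1.26, SE 0.28, edgeR p = 0.0013, adjusted p = 0.999, exact permutation p = 0.0286, the smallest possible). DESeq2 called it (adjusted p = 0.0285). Over all genes tested, 0.684% had all photoconverted tumors above all control tumors. Rasa2 and Il17rd had log2 fold changes of 0.15 and -0.23. Leaving out 1 tumor gave 0.07 to 0.19 for Rasa2 and -0.32 to -0.13 for Il17rd.

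Of 14 transcriptional targets of ERK, 0 passed the edgeR test with 8 tumors. A log2 fold change above 0 was found for 11 of them, beside 6768 of all 14468 genes tested, and 3 were below 0. The 5 genes named below were picked for the smallest edgeR p of the list, and all 5 were higher in photoconverted tumors. Over the whole list the log2 fold change ran from -0.26 to 2.65 with a median of 0.29. That median ran from 0.12 without control tumor 3 to 0.45 without control tumor 4, and without photoconverted tumor 4 Egr1 was called (3.02, edgeR adjusted p = 0.0286). Egr1, an immediate-early transcription factor, had 149, 133, 235 and 15.2 CPM in photoconverted tumors and 15.6, 16.9, 20.6 and 31.6 CPM in control tumors. Photoconverted tumors 1 to 3 exceeded every control tumor by more than 4 times, and photoconverted tumor 4 was the lowest of all 8. Egr1 had a log2 fold change of 2.65 (SE 0.65, edgeR p = 0.0026, adjusted p = 0.999, exact permutation p = 0.143), and DESeq2 called this gene (adjusted p = 0.0192). Phlda1, a growth factor inducible gene, had a log2 fold change of 1.08 (SE 0.43, edgeR adjusted p = 0.999, exact permutation p = 0.0857). Values were 0.69 (SE 0.34) for Fos, 0.46 (SE 0.23) for Junb and 0.44 (SE 0.25) for the ephrin receptor gene Epha2. Leaving out photoconverted tumor 3 or 4 gave 0.43 or 0.93 for Fos, and leaving out control tumor 3 or 4 gave 0.29 or 0.73 for Epha2. In the fit of the 5 low-share tumors Egr1 (3.26), Phlda1 (2.23) and Epha2 (0.98) were called, each with an edgeR adjusted p of 0.0101, and Errfi1 (1.65) was called with 0.0229. Fos (1.09, edgeR adjusted p = 0.158) and Junb (0.95, edgeR adjusted p = 0.0879) were not called there. Both were called in the fit of the 2 low-share pairs, which has 1 residual degree of freedom (Fos 1.26, edgeR adjusted p = 0.0205, and Junb 1.02, edgeR adjusted p = 0.0263). With the muscle markers as a covariate, and all 8 tumors, Egr1 was 1.61, Errfi1 0.98, Phlda1 0.93, Fos 0.22, Junb 0.37 and Epha2 0.56, and with the replicate block added they were 0.71, 0.52, 0.41, 0.24, 0.21 and 0.16, with none called in either fit. Of 9 kinase genes tested in the p38 and JNK branches, Map2k3, an activator of p38, had groups that did not overlap (log2 fold change 0.34, SE 0.11, edgeR p = 0.0134, adjusted p = 0.999, exact permutation p = 0.0286). Photoconverted tumor 4 (108 CPM) lay next to control tumor 4 (106 CPM), and 0.684% of all genes tested had all photoconverted tumors higher. The median of those 9 kinase genes was -0.03 (-0.03 to 0.06 when 1 tumor was left out), with Map2k4 at 0.28 and Mapk11 at -0.24 (0.06 without the high-share libraries). Without control tumor 2 these were 0.13 and -0.03.

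**Figure D4:**
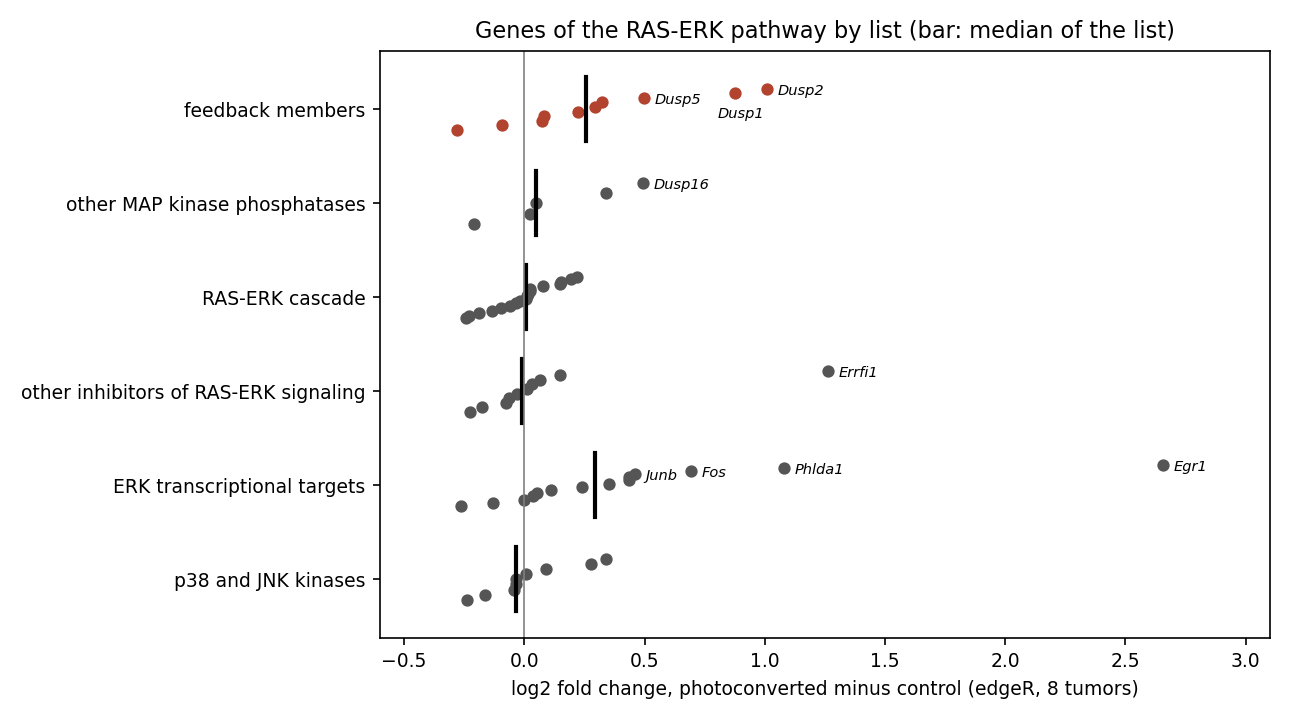
log2 fold change, photoconverted minus control, from the edgeR fit of 8 tumors for the tested genes of 6 lists (each point 1 gene, vertical bar the median of the list, heights within a list only to separate points). The feedback genes (red) have a median of 0.26 and the ERK transcriptional targets a median of 0.29, and the cascade stays between -0.24 and 0.22.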

How the data were processed

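Bulk RNA-seq covered 4 photoconverted and 4 control MC38 tumors. Raw read counts for 24421 gene symbols were deposited by the authors without normalization, along with normalized signal values for 19823 genes, which equal the raw counts divided by size factors of 0.416 to 1.77. The submitters' processing notes name CASAVA, FastQC, Trim Galore, HISAT2, featureCounts, DESeq2 and build mm10. The annotation and strand setting are not given in the sources used here. The library kit was SMARTER stranded total RNA per the labels and TruSeq stranded total per the methods of the paper.

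Groups and replicate numbers came from the sample labels, and all 8 columns of both tables were used. Counts were tested with edgeR 4.0.16 in R 4.3.3 (TMM normalization, filterByExpr, glmQLFit, glmQLFTest, Benjamini-Hochberg adjustment over 14468 genes, threshold 0.05). log2 CPM used a prior count of 2. Standard errors were derived from the F statistic. Exact permutation tests were two-sided. The members and lists were chosen with earlier results of these data known. Genes named outside the 10 had the smallest edgeR p in their list (up to 3, or 5 for ERK targets), or the 2 highest correlations with a member; 2 genes that this rule names are not reported here. Transcript lengths came from GENCODE M21, and positions and upstream sequences from RefSeq (GRCm38.p6). Alternatives used DESeq2 1.42.0, limma 3.58.1 on log2 of the normalized values plus 1, other normalizations and filters, covariates, fewer tumors and the replicate number as a block.

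Deviations from the group means correlated, across genes, with r = 0.597, 0.107, 0.407 and 0.623 between tumors of the same number and with r from -0.600 to 0.482 between tumors of different numbers. The latter included 0.482 for photoconverted tumor 3 and control tumor 1, above the value of 0.407 for pair 3, and 0.455 and 0.346 in other combinations of like Rn45s share. Photoconverted tumor 2, also of low share, had lower values with the low-share control tumors 1 (-0.141) and 3 (0.0887). These values do not settle whether tumors of the same number are pairs. The labels state no pairing, so the main tests were unpaired and the numbers were used as pairs only in the blocked fits and the sign-flip test. The shared numbers come from the labels, which give no reason for them. On simulated counts for this comparison (14468 genes, 200 changed 4-fold), edgeR recovered 179 with 6 false calls. These counts were drawn independently for each gene, without differences in Rn45s share or cell content between tumors. Smaller changes, such as the ratio of 1.99 for Dusp2, were not simulated. The recovery is therefore a check of the method and not a measure of power in these tumors. No 2 libraries of a group agreed within sampling noise (smallest chi-square per degree of freedom 25.3). Depths were 12576615 to 35844417 counts, and members had from 42 (Spry1) to 3635 (Spred1) reads in a tumor.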

Additional observations from a re-analysis of the deposited data

Results flagged for a closer look

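In 56 groups of 4 tumors examined by Dixon's criterion, 3 held a tumor far from the others, and chance alone gives about 2.8. Photoconverted tumor 3 had 15.8 CPM of Dusp8, next to 13.4 CPM in the nearest tumor of its group. The same tumor had 5.36 CPM of Spred3, next to 4.17 CPM. Photoconverted tumor 4 had 165 CPM of Map2k1, next to 119 CPM. None of the 10 feedback genes held such a tumor.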

How the results depend on the processing

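Over 22 alternatives, Dusp1 (log2 fold change 0.13 to 1.50), Dusp2 (0.57 to 1.82), Dusp5 (0.19 to 1.37), Dusp6 (0.19 to 0.36), Spry2 (0.13 to 0.47) and Spry4 (0.13 to 0.38) were higher in photoconverted tumors in every one. With the replicate block, 0 genes passed edgeR's test (869 at an unadjusted p under 0.05, beside 322 without it), and the block changed no call. Block values were 0.73 for Dusp1, 1.03 for Dusp2, 0.60 for Dusp5 and 0.29 for Dusp6. The count of genes called was 42 in the 5 low-share tumors, 24 with DESeq2 and 0 to 11 when 1 tumor was left out, the 11 without photoconverted tumor 4. Alternatives chosen after seeing the data added the block to the Rn45s or muscle covariate, or to the 2 pairs with low Rn45s shares. The last has 1 residual degree of freedom and called 66 of 15046 genes (0.439%), 3 of them members: Dusp1 at 1.50 (edgeR adjusted p = 0.0156), Dusp2 at 1.82 (0.0117) and Dusp5 at 1.37 (0.0390). With block and muscle covariate together these were 0.13, 0.57 and 0.19, with none called. The 5 low-share tumors called 2, Dusp2 at 1.71 and Dusp5 at 1.34.

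Signs turned as follows, and the cause was not tested. In the 5 low-share tumors Dusp4 was 0.36, Spred1 -0.064, Spred2 0.18, Dusp9 0.15, Spred3 0.26 and Mapk11 0.061. In the 2 low-share pairs Dusp4 was 0.38, Spred1 -0.024, Spred2 0.15, Dusp9 0.080, Spred3 0.32 and Mapk11 0.072. With the muscle covariate Spry1 was -0.046, Spred1 -0.10, Spred2 0.045 and Dusp9 0.077. With the Rn45s covariate Spred2 was 0.028 and Spred3 0.0086. With block and Rn45s Dusp4 was 0.015, Spred2 0.075 and Spred3 0.12, and with block and muscle Spred2 was 0.15. Leaving out 1 tumor gave -0.084 to 0.28 for Spry1, -0.061 to 0.19 for Spred1, -0.25 to 0.10 for Spred2 and -0.20 to 0.21 for Spred3. It gave 0.62 to 1.14 for Dusp1, 0.83 to 1.23 for Dusp2, 0.30 to 0.81 for Dusp5 and -0.46 to -0.07 for Dusp4, with no member called.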
